A study of Saccharomyces cerevisiae with 36 samples.

Results

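NCIP peptides are designed coiled-coil heterodimers, here the 12 peptides named Jerala_P1 to Jerala_P12, and the comparison described is their selection for interaction at 10 mM against 2 mM 3-amino-1,2,4-triazole (3-AT). The samples were chosen by their labels: the 2 libraries without histidine marked as high in 3-AT (10 mM) and the 2 libraries without histidine at 2 mM, each dose in library sets L61 (biological replicate 1) and L62 (biological replicate 2). These are 4 of the 36 samples of the series. In each of them all ordered pairs of the 12 peptides (12 rows by 12 columns) were counted: 12 are designed pairs (an odd-numbered peptide and the next even number, in either order, hence 6 dimers), 12 are homodimers and 120 are off-target pairs.

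The series measured protein interactions in yeast by a two-hybrid assay read by sequencing. Both partners of a pair carry a DNA barcode on 1 plasmid, plasmids are recovered from the yeast, and barcode pairs are counted before and after growth without histidine. Each library of both doses came from the same MATa strain. It carries the reporter leu2::pGAL6z-HIS3 in a his3-delta background, and the labels also list trp1, ura3-52, leu2-delta200, can1, pep4::BleoMX, prbd1.6R, GAL and AGA1::GAL1-AGA1::URA3. The titles of both selected libraries of replicate 1 say that selection started from 24 h of outgrowth, and those of replicate 2 give no time. The growth protocol gives 3 mM 3-AT for the whole series, whereas the sample descriptions give 2 and 10 mM, and the descriptions were followed. The counts hold no measure by which the labelled dose can be checked.

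In a dimeric coiled coil a pair of helices wind around each other, with hydrophobic residues of a repeating heptad in the core. Charged residues beside the core help to decide which partners fit. In a two-hybrid assay, 1 partner is fused to a DNA-binding domain and the other to an activation domain, and their contact switches on a reporter gene. Here the reporter is HIS3, an enzyme of histidine synthesis, so that cells with an interacting pair grow without histidine. 3-AT is a competitive inhibitor of that enzyme, and more of it raises the amount of HIS3 product a cell needs in order to grow.

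Each pair is known only by its 2 barcodes, and the same 12 barcodes served in both library sets. They are printed here for the off-target pairs with the most reads at 10 mM, beside the barcode of the designed partner of the same row peptide, with the positions at which these 2 barcodes differ in capitals. The row and column of a pair are those of the deposited matrices, which do not say which fusion stands in which.
Jerala_P3, designed column for row Jerala_P4: GgGTACgTGAaatACCtTCa
Jerala_P12, off-target column for row Jerala_P4: TgTCTTgGACaatGTAtGTa
Jerala_P12, designed column for row Jerala_P11: TGTCTtGGAcAATGTAtGtA
Jerala_P5, off-target column for row Jerala_P11: ACATGtATCcCTCAGGtTtC
Jerala_P9, designed column for row Jerala_P10: CGTCgCcACCTCCTTTAGgc
Jerala_P6, off-target column for row Jerala_P10: TTAAgAcGAACTGCCACAgc
Of their 20 bases, the first pair of barcodes differs at 13, and the others at 16. Among all 66 combinations of the 12 barcodes, the number of differing bases ran from 11 to 19, so no barcode lay within 10 bases of another.

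The libraries held 477199 reads (replicate 1) and 327863 reads (replicate 2) at 2 mM, and 430111 and 445958 reads at 10 mM. The unselected libraries of the same sets, used here as the background, held 402198 and 370902 reads spread over nearly all pairs. Their median pair had 2866 and 2385.5 reads. For replicate 1 this was the unselected library labelled 24 h, and later ones of that set were not used. The label of the unselected library of replicate 2 gives no time. After selection most reads lay in a few pairs. The median pair had 256.5 and 26 reads at 2 mM and 122.5 and 88 reads at 10 mM, and the inverse Simpson index of the pair shares, an effective number of pairs, was 10.1 and 8.01 at 2 mM and 6.84 and 6.18 at 10 mM. It was thus lower at the higher dose in both sets.

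Designed pairs held most reads at both doses, and less at 10 mM than at 2 mM. Before selection they held 5.43% and 5.21% of reads in replicates 1 and 2. At 2 mM they held 87.4% (95% Wilson interval 87.3 to 87.5) and 85.3% (85.2 to 85.4), and at 10 mM 83.3% (83.2 to 83.5) and 74.8% (74.7 to 75.0). These intervals cover counting error only. The 2 doses did not overlap, and the difference was -4.01 percentage points in replicate 1 and -10.5 in replicate 2. Off-target pairs stood at 12.4% and 14.1% of reads at 2 mM against 16.5% and 24.9% at 10 mM. Homodimers stayed under 1% in all 4 libraries, with 0.239% and 0.645% at 2 mM and 0.124% and 0.252% at 10 mM.

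By an exact permutation test over the 4 libraries (two-sided, 6 assignments), the mean difference of -7.23 points for designed pairs and that of 7.49 points for off-target pairs each had p = 0.33, the smallest p this design allows, and that of -0.254 points for homodimers had p = 0.667. With the doses exchanged within library sets only (4 assignments, added after seeing the data), the exact permutation p was 0.5 for each of the 3 classes, the smallest it can be, so neither test could pass a threshold of 0.05. The size of the first 2 differences depended on the pairs with the most reads. Without the pair of most reads in each library, a designed pair in all 4, the designed share differed by -6.69 and -15.2 points (mean -10.9) and the off-target share by a mean of 11.2. With the off-target pair of most reads taken out instead, a choice made after seeing the data, the designed share differed by -2.00 points in replicate 1 and by -1.87 in replicate 2, a mean of -1.93.

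**Figure D1:**
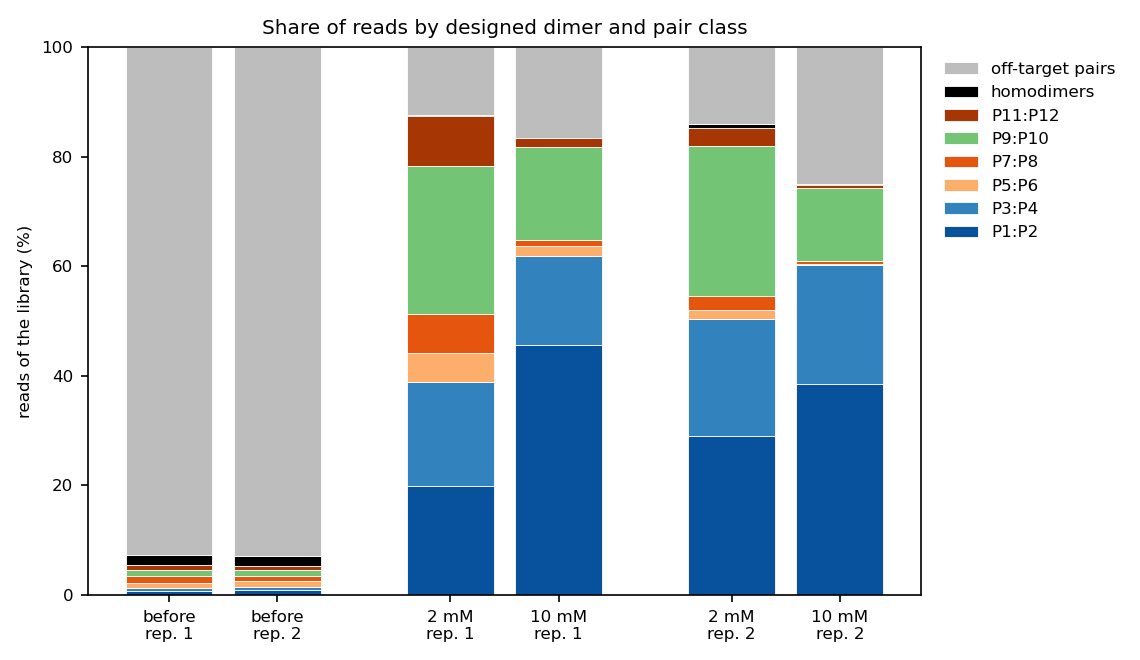
Share of reads (%) of each library held by the 6 designed dimers (both orders summed), the homodimers and the off-target pairs, before selection and at 2 and 10 mM 3-AT, in replicates 1 and 2 (P1 stands for Jerala_P1, and so on). Designed dimers together held 74.8% to 87.4% of reads after selection, and the Jerala_P1:Jerala_P2 dimer took the largest share at 10 mM, 45.5% and 38.5%.

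Within the designed class, reads moved far more than the class total did. In replicate 1 some designed ordered pairs gained 25.7 percentage points between them and the others dropped by 29.7, and in replicate 2 the gains came to 13.2 points and the others dropped by 23.6. The Jerala_P1:Jerala_P2 dimer, both orders summed, held 19.9% of reads at 2 mM and 45.5% at 10 mM in replicate 1, and 29.1% and 38.5% in replicate 2. It was the one dimer with a higher share at 10 mM in both sets, and of the reads of designed pairs it held 54.7% and 51.5% at 10 mM against 22.8% and 34.1% at 2 mM.

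Jerala_P3:Jerala_P4 kept about the same share, 19.1% at 2 mM and 16.3% at 10 mM in replicate 1 and 21.3% and 21.6% in replicate 2. Jerala_P9:Jerala_P10, which with 27.1% and 27.4% was among the 2 dimers of most reads at 2 mM, held 17.0% and 13.2% at 10 mM. Its share was thus 1.59-fold and 2.08-fold lower.

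The remaining 3 dimers had the lowest shares at 2 mM and the largest fold differences. Jerala_P5:Jerala_P6 held 5.30% and 1.62% at 2 mM and 1.71% and 0.280% at 10 mM, a share 3.09-fold lower in replicate 1 and 5.79-fold lower in replicate 2. Jerala_P7:Jerala_P8 went from 6.97% and 2.58% to 1.11% and 0.607%, 6.25-fold and 4.25-fold lower. Jerala_P11:Jerala_P12 went from 9.05% and 3.35% to 1.59% and 0.636%, 5.68-fold and 5.26-fold lower. For each of the 3, both libraries at 10 mM lay below the library at 2 mM of their own set, and for Jerala_P7:Jerala_P8 and Jerala_P11:Jerala_P12 the 2 doses did not overlap at all. Together these 3 dimers, grouped after their values were seen, held 21.3% and 7.55% of reads at 2 mM and 4.42% and 1.52% at 10 mM.

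Fitted with both orders summed, an alternative added after seeing the data, none of 73 peptide pairs passed edgeR's quasi-likelihood test without the library set as a term. Jerala_P1:Jerala_P2 had the smallest adjusted p there, with a log2 change of 0.78 ± 0.27 (SE, n = 2 libraries per dose) and an adjusted p of 0.305 in edgeR. With the replicate block, that is with the library set as a term, 2 pairs were lower, which is 2.74% of the pairs tested. They were Jerala_P11:Jerala_P12 (log2 change -2.45 ± 0.57 SE, edgeR adjusted p = 0.0042) and Jerala_P7:Jerala_P8 (-2.37 ± 0.62, edgeR adjusted p = 0.0096). Jerala_P5:Jerala_P6 missed the threshold of 0.05 (-2.08 ± 0.67, edgeR adjusted p = 0.0703). No pair was called higher, and Jerala_P1:Jerala_P2 had an edgeR adjusted p of 0.326 with the block. With 2 libraries per dose, the blocked p-values rest largely on a spread pooled over pairs that share peptides. The fits with both orders summed used library totals as scale and were not tried with another.

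The 12 designed ordered pairs showed which order carried these reads. For Jerala_P2 with Jerala_P1 the libraries held 31951 and 44640 reads at 2 mM and 93558 and 109859 at 10 mM, a log2 change of share of 1.70 and 0.86 in replicates 1 and 2. It was the one designed pair with a higher share in both sets. Its other order, Jerala_P1 with Jerala_P2, held 62934 and 50652 reads at 2 mM and 102351 and 61887 at 10 mM, with log2 changes of 0.85 and -0.15, so the 2 sets moved apart.

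For Jerala_P8 with Jerala_P7 the reads were 29996 and 8358 at 2 mM and 4609 and 2622 at 10 mM, log2 changes of -2.55 and -2.12. For Jerala_P12 with Jerala_P11 they were 35130 and 9486 at 2 mM and 6321 and 2571 at 10 mM, log2 changes of -2.32 and -2.33. In both pairs every library at 10 mM was below every library at 2 mM, and on library totals the 2 sets gave nearly the same change. Against the median off-target pair the sets differed more, with -1.75 and -3.49 for Jerala_P8 with Jerala_P7 and -1.52 and -3.70 for Jerala_P12 with Jerala_P11. Jerala_P11 with Jerala_P12, the other order, held 8068 and 1487 reads at 2 mM and 531 and 266 at 10 mM, log2 changes of -3.77 and -2.92.

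Jerala_P5 with Jerala_P6 held 21659 and 5295 reads at 2 mM and 6755 and 1190 at 10 mM, log2 changes of -1.53 and -2.60. Its other order, Jerala_P6 with Jerala_P5, held 3625 and 22 reads at 2 mM and 620 and 59 at 10 mM, and its changes of -2.40 and 0.94 had opposite signs. The level of 22 reads in replicate 2 was below the median off-target pair of that library (26 reads), so in this order and set the designed pair could not be told from off-target pairs. Jerala_P7 with Jerala_P8 held 3266 and 97 reads at 2 mM and 184 and 83 at 10 mM, log2 changes of -3.99 and -0.67. In replicate 2 it stood at 3.73 times the off-target median at 2 mM and at 0.943 times at 10 mM, so at the higher dose it was near that median.

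Jerala_P3 with Jerala_P4 held 11454 and 6950 reads at 2 mM and 3217 and 1328 at 10 mM, log2 changes of -1.68 and -2.83. Its other order, Jerala_P4 with Jerala_P3, held 79476 and 62861 reads at 2 mM and 67082 and 95134 at 10 mM, log2 changes of -0.09 and 0.15. The steady share of this dimer therefore belonged to 1 order. On library totals, Jerala_P9 with Jerala_P10 (log2 changes of -0.52 and -0.70) and Jerala_P10 with Jerala_P9 (-0.86 and -1.35) were lower in both sets. In each order the 2 doses did not overlap. Against the median off-target pair the changes were 0.28 and -2.08 for the first and -0.06 and -2.73 for the second. On that scale only replicate 2 was clearly lower.

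**Figure D2:**
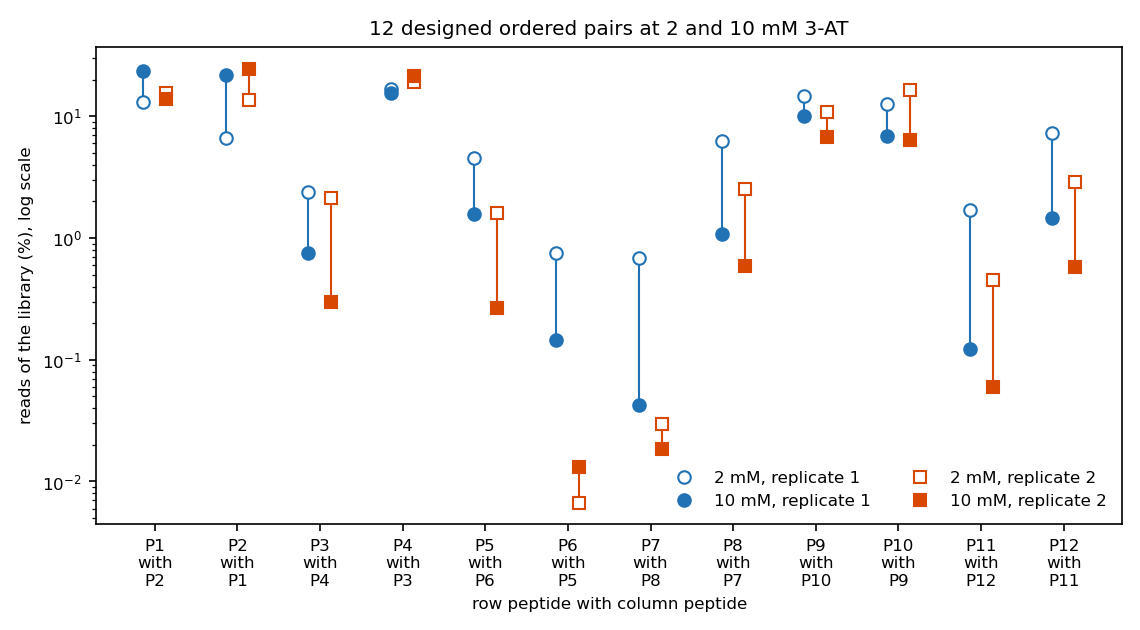
Share of reads (%, log scale) of the 12 designed ordered pairs (row peptide with column peptide), open symbols at 2 mM and filled at 10 mM, circles for replicate 1 and squares for replicate 2, with a line joining the doses of 1 replicate. On library totals, Jerala_P12 with Jerala_P11 and Jerala_P8 with Jerala_P7 are lower by a like distance in both replicates, whereas Jerala_P2 with Jerala_P1 is higher in both (against the median off-target pair it is lower in replicate 2).

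All 12 designed pairs, 7 of 12 homodimers and all 120 off-target pairs passed the filter of 10 reads per library on average. In edgeR's fit of the 4 libraries without a block, 0 of these 139 pairs (0%) had an adjusted p under 0.05. The smallest adjusted p in edgeR was 0.998, and at an unadjusted p under 0.05 there was 1 pair higher (Jerala_P2 with Jerala_P1) and 1 lower (Jerala_P12 with Jerala_P11). DESeq2 called 1 pair lower with its own size factors and 0 with library totals. The sets pair the libraries by their labels, and with the replicate block edgeR called 2 pairs lower (1.44% of those tested) and 0 higher. They were Jerala_P8 with Jerala_P7 at -2.33 ± 0.67 (SE) and Jerala_P12 with Jerala_P11 at -2.33 ± 0.65, each with an edgeR adjusted p of 0.0484. Both calls were lost when TMM factors replaced library totals in the blocked edgeR fit, in which the smallest adjusted p was 0.255.

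By direction alone, 8 of 12 designed pairs had a lower share at 10 mM in both sets, where 23 pairs of all classes did (16.0%), and 1 of 12 had a higher share in both, where 16 pairs did (11.1%). The median log2 change of the 12 designed pairs was -1.61 in replicate 1 and -1.03 in replicate 2. The median over pairs of all classes was -0.80 and 1.32, so the scale on which a pair is read matters. Against the median off-target pair of each library, again 8 designed pairs were lower in both sets, where 44 pairs were (30.6%), and 0 were higher in both, where 34 pairs were (23.6%). Of the first 8, 7 were among the second 8, since Jerala_P9 with Jerala_P10 dropped out and Jerala_P6 with Jerala_P5 came in.

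On the scale of the median off-target pair, Jerala_P2 with Jerala_P1 had log2 changes of 2.50 in replicate 1 and -0.52 in replicate 2, and Jerala_P1 with Jerala_P2 had 1.65 and -1.53. The larger share of this dimer in replicate 2 thus turned into a lower value once the off-target pairs of the library were the reference. The direction of Jerala_P12 with Jerala_P11 (-1.52 and -3.70) and of Jerala_P8 with Jerala_P7 (-1.75 and -3.49) was the same on either scale.

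**Figure D3:**
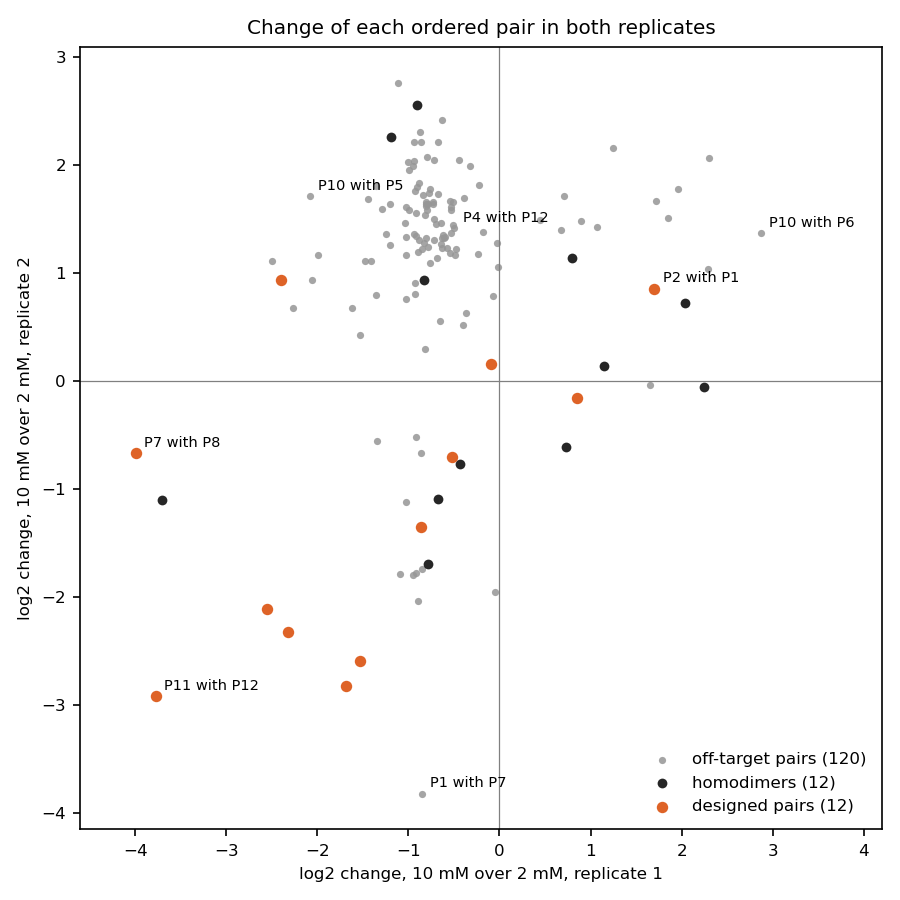
Log2 change of the share of reads, 10 mM over 2 mM, in replicate 1 (x axis) against replicate 2 (y axis) for 12 designed pairs, 12 homodimers and 120 off-target pairs, on library totals. Most off-target pairs lie at the upper left, lower in replicate 1 (median -0.80) and higher in replicate 2 (median 1.38), and 8 designed pairs lie at the lower left; the direction of Jerala_P2 with Jerala_P1 in replicate 2 flips on the scale of the median off-target pair.

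The 2 orders of a dimer share both peptides and both barcodes, yet in 4 of the 6 dimers they differed several-fold in level after selection. In Jerala_P3:Jerala_P4 the order with Jerala_P4 as row had 6.94 and 9.04 times the reads of the other at 2 mM in replicates 1 and 2, and 20.9 and 71.6 times at 10 mM (4.60 and 0.983 times in the unselected libraries). In Jerala_P11:Jerala_P12 the order with Jerala_P12 as row had 4.35 and 6.38 times the reads at 2 mM and 11.9 and 9.67 times at 10 mM (1.06 and 0.608 times in the unselected libraries). The ratio was larger at 10 mM in both sets for these 2 dimers.

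For Jerala_P7:Jerala_P8 (row Jerala_P8 over row Jerala_P7) the ratio went from 9.18 to 25.0 in replicate 1 and from 86.2 to 31.6 in replicate 2. For Jerala_P5:Jerala_P6 (row Jerala_P5 over row Jerala_P6) it went from 5.97 to 10.9 and from 241 to 20.2. The ratios of 86.2 and 241 rest on the 97 and 22 reads of the weaker order. The 2 remaining dimers were nearly balanced, with ratios of the even row over the odd row of 0.508 and 0.881 at 2 mM and 0.914 and 1.78 at 10 mM for Jerala_P1:Jerala_P2, and of 0.861 and 1.50 against 0.680 and 0.960 for Jerala_P9:Jerala_P10. The preferred order of the 4 unbalanced dimers was the same in all 4 libraries, with the even-numbered peptide as row in 3 and Jerala_P5 as row in the fourth.

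Among homodimers, in which 1 peptide stands on both sides, 7 of 12 had only 3 to 30 reads in either library before selection, so that little can be said of them. They were those of Jerala_P1, Jerala_P2, Jerala_P4, Jerala_P6, Jerala_P8, Jerala_P9 and Jerala_P10, and after selection they had 0 to 46 reads. The homodimers of Jerala_P3, Jerala_P5, Jerala_P7 and Jerala_P12 had 1172 to 3216 reads before selection. None of these 4 reached 1% of reads at either dose.

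The Jerala_P3 homodimer held 158 and 2011 reads at 2 mM and 82 and 842 at 10 mM, log2 changes of -0.79 and -1.70. It alone made up most homodimer reads of replicate 2, with 0.613% of the library at 2 mM and 0.189% at 10 mM, and stood higher in replicate 2 than in replicate 1 at both doses. The homodimers of Jerala_P5 (204 and 13 reads at 2 mM against 80 and 90 at 10 mM), Jerala_P7 (0.0302% and 0.00275% of reads against 0.0160% and 0.0177%) and Jerala_P12 (353 and 14 reads against 178 and 38) were lower at 10 mM in replicate 1 and higher in replicate 2. They moved as the bulk of the off-target pairs did.

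The Jerala_P11 homodimer began with 93 and 198 reads, and after selection it had 231 and 18 at the lower dose and 15 and 11 at the higher, log2 changes of -3.71 and -1.11. It was lower at 10 mM in both sets, but at 15 and 11 reads it stood below the median off-target pair of its library. It is the pair that DESeq2 with its own size factors called lower (log2 change -2.82 ± 0.57 SE, DESeq2 adjusted p = 0.000126). In edgeR's fit its adjusted p was 0.998 on library totals, 0.0506 with TMM factors, 0.996 with the replicate block and 0.255 with the block and TMM factors. In edgeR fits that left out 1 library its adjusted p was 4.74e-06 (log2 change -4.01) without the 2 mM library of replicate 2, 0.403 (-0.88) without that of replicate 1, and 1.000 and 0.999 without the 10 mM libraries of replicates 1 and 2. Each of these fits has 1 library at one dose, which is assumed to vary like the 2 of the other.

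The bulk of the off-target pairs moved in opposite directions in the 2 sets. The median off-target pair started at 0.761% and 0.724% of reads, and after selection it stood at 0.0535% and 0.00793% with 2 mM and at 0.0282% and 0.0197% with 10 mM. At 10 mM it was thus 1.90-fold lower in replicate 1 and 2.49-fold higher in replicate 2. In replicate 1, 107 of 120 off-target pairs had a lower share at 10 mM, and in replicate 2, 108 of 120 had a higher one.

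The 2 libraries at 2 mM lay on opposite sides of the 2 at 10 mM. At 2 mM the median off-target pair was 14.2-fold (replicate 1) and 91.3-fold (replicate 2) below its level before selection. At 10 mM it was 27.0-fold and 36.7-fold below. The 2 replicates differed 6.75-fold in this median at 2 mM and 1.43-fold at 10 mM. The deposited matrix of the 2 mM library of replicate 2 carries a tag, OD10, that those of the other 3 do not. The labels do not explain it. The growth protocol gives an OD600 of 1.0 at harvest. The part of this tag in the result was not tested. Leaving out either 2 mM library moved the median log2 change over all pairs of edgeR's fit from -0.24 to 1.84 (without replicate 1) and to -0.93 (without replicate 2).

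The extra off-target reads at 10 mM lay in a few pairs, and different ones in each set. Off-target pairs above 10 times the off-target median of their library numbered 1 at 2 mM and 11 at 10 mM in replicate 1, and 9 and 5 in replicate 2. That was 0.83% and 9.17% of all off-target pairs in replicate 1, and 7.5% and 4.17% in replicate 2. They held 12.4% and 71.6% of the off-target reads in replicate 1 and 92.7% and 89.2% in replicate 2. The cutoff moved with the median, which was 255.5 reads at 2 mM and 121.5 at 10 mM in replicate 1, and 26 and 88 in replicate 2. A pair could thus cross it with no change in its own reads, and part of the difference in these counts can come from that. Between the sets, 0 of the pairs above the cutoff were shared at 2 mM and 0 at 10 mM. Lists this short would share few or no pairs by chance, so these counts do not show that the sets differ. Within a set, the 1 pair of replicate 1 at 2 mM was among the 11 at 10 mM (100% of 1 and 9.09% of 11), and all 5 of replicate 2 at 10 mM were among the 9 at 2 mM (55.6% of 9).

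In replicate 2, Jerala_P4 with Jerala_P12 held 19194 reads at 2 mM and 69797 at 10 mM, which was 5.85% and 15.7% of the library. In replicate 1 it held 268 and 171 reads, close to the off-target median. Before selection it had 3209 and 1136 reads in replicates 1 and 2, so that the set in which it was high after selection was the one that began with fewer. Its log2 changes were -0.50 and 1.42, but against the off-target median of replicate 2 it stood 738 times higher at 2 mM and 793 times at 10 mM, about the same distance. The other order, Jerala_P12 with Jerala_P4, chosen after its values were seen, had 22 and 64 reads in replicate 2.

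Jerala_P11 with Jerala_P5 behaved alike, with 8317 reads at 2 mM and 24380 at 10 mM in replicate 2 (2.54% and 5.47% of the library) and 258 and 87 reads in replicate 1. It stood 320 and 277 times above the off-target median of replicate 2. These 2 pairs were the ones above 100 times the median at 10 mM in replicate 2 and together held 84.7% of its off-target reads. Jerala_P12 with Jerala_P10 (4737 against 1860 reads in replicate 2) and Jerala_P9 with Jerala_P5 (3611 against 1413) were also high in replicate 2 only, and had a lower share at 10 mM in both sets, with log2 changes of -1.09 and -1.79 for the first and -0.95 and -1.80 for the second.

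In replicate 1 the leading off-target pair was Jerala_P10 with Jerala_P6. It held 2544 reads at 2 mM and 16754 at 10 mM (0.533% and 3.90% of the library), and 43 and 154 reads in replicate 2, log2 changes of 2.87 and 1.37. It stood at 9.96 and 138 times the off-target median in replicate 1 and near that median in replicate 2 (1.65 and 1.75 times). Jerala_P11 with Jerala_P10 held 2162 and 6147 reads in replicate 1 and 55 and 73 in replicate 2, log2 changes of 1.66 and -0.04. Jerala_P10 with Jerala_P5, the off-target pair of most reads at 2 mM in replicate 1, went the other way there, from 7314 to 1559 reads, and in replicate 2 from 31 to 142.

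Of the 120 off-target pairs, 12 had a higher share at 10 mM in both sets and 11 a lower one. In replicate 1 alone 13 were higher and 107 lower, and in replicate 2 alone 108 were higher and 12 lower. Being higher in both sets thus depended almost only on replicate 1, and being lower in both almost only on replicate 2. Among the pairs higher in both sets were 4 of the 10 off-target pairs with Jerala_P2 as row. Jerala_P2 with Jerala_P5 held 1073 and 34 reads at 2 mM and 4773 and 198 at 10 mM, log2 changes of 2.30 and 2.06. Jerala_P2 with Jerala_P3 held 599 and 28 reads against 2103 and 134 (1.96 and 1.78), and Jerala_P2 with Jerala_P8 held 363 and 17 against 775 and 108 (1.24 and 2.15). The fourth, Jerala_P2 with Jerala_P6, chosen after its values were seen, held 1184 and 35 against 3527 and 155 (1.72 and 1.67). All 4 were also higher relative to the median off-target pair in both sets, in the order named by 3.10 and 0.69, 2.76 and 0.40, 2.04 and 0.78, and 2.52 and 0.30 on the log2 scale, as were 34 of the 120 off-target pairs (28.3%). In replicate 2 the first 3 stood near the off-target median. In the order named they were at 1.31, 1.08 and 0.654 times that median at 2 mM, and at 2.25, 1.52 and 1.23 times at 10 mM. None of the 4 passed edgeR's test with an adjusted p under 0.05.

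Among off-target pairs the lowest log2 change in 1 set was that of Jerala_P1 with Jerala_P7 in replicate 2, from 2071 to 198 reads (-3.82), against 281 and 140 reads and -0.85 in replicate 1. Jerala_P4 with Jerala_P7 had 236 and 414 reads at 2 mM and 114 and 136 at 10 mM, log2 changes of -0.89 and -2.04. The pairs with the largest difference between sets were low in 1 library. Jerala_P6 with Jerala_P4 had 119 and 3 reads at 2 mM and 49 and 36 at 10 mM (log2 changes of -1.11 and 2.77), and Jerala_P9 with Jerala_P2 had 866 and 18 against 137 and 55 (-2.50 and 1.12).

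The levels of off-target pairs were more alike within a library set than between the sets. Across the 120 off-target pairs, Pearson's r of the log2 share was 0.870 between the doses of replicate 1 and 0.880 between those of replicate 2, but 0.137 between the sets at 2 mM and 0.107 at 10 mM. Spearman's rho was 0.863 and 0.849 within the sets and 0.401 between them at either dose, so the rank order was shared in part. Off-target levels also followed in part those before selection in the same set. Spearman's rho with the unselected library was 0.551 at 2 mM and 0.523 at 10 mM in replicate 1, and 0.678 and 0.821 in replicate 2. Pearson's r there ran from 0.296 to 0.425. Across the 12 designed pairs, Pearson's r ran from 0.897 to 0.975 and Spearman's rho from 0.860 to 0.923 over all library combinations. Pairs share peptides and the 2 doses share a library set, so these are descriptions. The log2 changes themselves correlated between sets at 0.53 over the 12 designed pairs and at 0.10 over the 120 off-target pairs. Designed pairs thus had a similar order in both sets, whereas off-target pairs did so only in part.

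**Figure D4:**
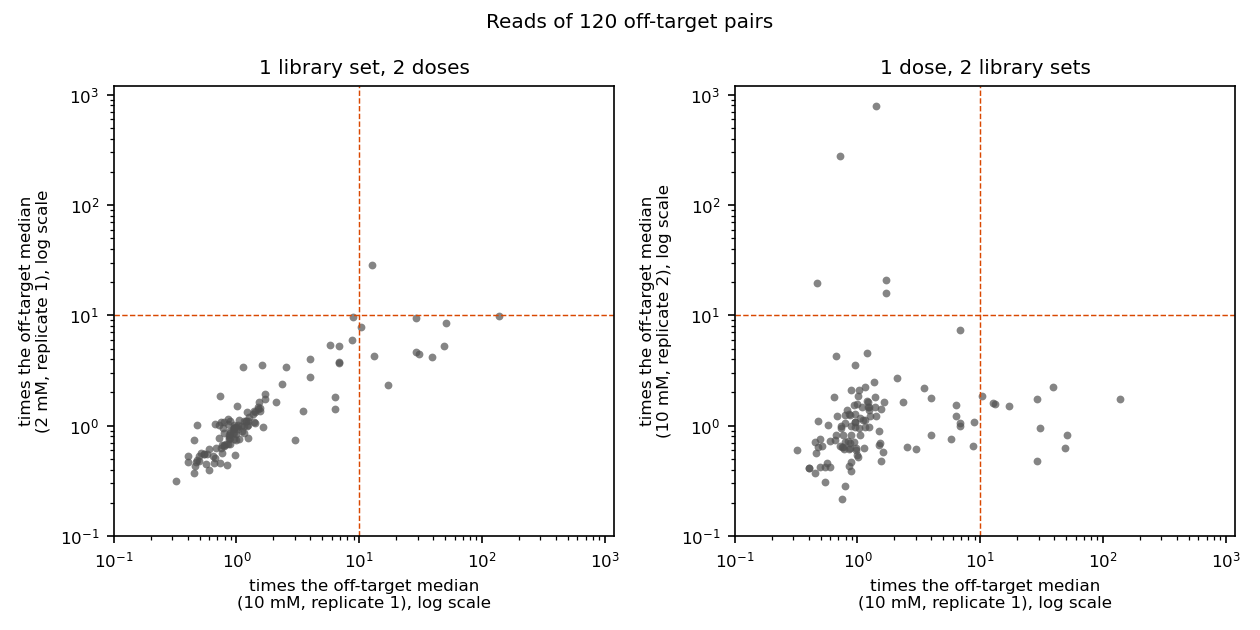
Reads of the 120 off-target pairs as multiples of the off-target median of their library (log scales), at 10 mM against 2 mM within replicate 1 (left) and at 10 mM in replicate 1 against replicate 2 (right), with dashed lines at 10 times the median. Within the set the points follow a common line (r = 0.870), and between the sets no pair lies above 10 times the median in both (11 in replicate 1, 5 in replicate 2). Lists this short would share few or no pairs by chance.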

How the data were processed

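Read counts per ordered pair of barcodes were deposited by the authors as matrices, 1 per library, not normalized. Per the submitters' processing notes they used DESeq2; its version, the aligner and the matching of barcodes were not given in the sources used here. A blank cell, 1 in each 2 mM library, was taken as 0. The replicate number of the 10 mM library of set L62 comes from its set, since its title has none. No source says how far the 2 sets are separate cultures, so p-values measure the spread between these libraries. In edgeR and DESeq2 this spread is estimated in large part over all pairs together. Pairs share peptides and a library total, so these p-values, above all those with the block, lean on that pooling. PCR reads are not independent molecules.

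Shares are reads over the library total, and log2 changes use (count + 1) over the total. Counts were tested in R 4.3.3 with edgeR 4.0.16 (glmQLFit, robust, and glmQLFTest; limma 3.58.1), library totals as scale, on pairs with at least 10 reads per library on average, with Benjamini-Hochberg adjusted p under 0.05, and with DESeq2 1.42.0 as an alternative. SE is the log2 change over the square root of F. Both doses of a set deviated together (r = 0.787 over all pairs), and the labels give the set, so blocked values are printed where a call changes. The test without a block was tried on simulated data, with the common spread of that fit for every pair and no effect of library set. It recovered few or none of the pairs changed there, so that a count of 0 called pairs does not show that pairs kept their level. The blocked fit was not tried in this way, nor was a spread that differs between pairs. Alternatives changed the scaling, tool, filter, pseudocount, block and libraries, and summed both orders. Shares were compared by exact permutation (Python 3.11.15, numpy 2.4.6, pandas 2.3.3, scipy 1.17.1; plots with matplotlib 3.10.9).

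Text names all 12 designed pairs. Of homodimers and off-target pairs it names the 4 of highest mean share per dose, up to 4 per direction of largest change shared by both sets with at least 50 reads in 1 library of each set, those with adjusted p under 0.05, and the 3 of largest difference between sets. Members, lists and tests were chosen with earlier results of these data known. Amino acid sequences of the peptides were not used here.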

Additional observations from a re-analysis of the deposited data

How the results depend on the processing

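The count of pairs lower at 10 mM was 0 in edgeR on library totals, and it was 1 with DESeq2's own size factors, 2 with the replicate block, 2 with both orders summed and the replicate block, and 0 to 1 when each library was left out in turn (1 without the 2 mM library of replicate 2). It stayed at 0 with TMM factors, DESeq2 on library totals, no filter, a filter of 50 reads, the replicate block with TMM factors, the unselected libraries in the fit, and both orders summed without the block. No pair was called higher in any of these fits. The fits with both orders summed were not run with TMM factors. With each replicate left out, the median log2 change ranged from -1.61 to -1.03 for designed pairs, from -0.56 to 0.045 for homodimers, and from -2.40 to -0.81 for designed minus off-target pairs. The designed share differed by -7.23 points and the off-target share by 7.49, against -1.93 and 2.18 without the off-target pair of most reads in each library and -10.9 and 11.2 without the pair of most reads of any class. Of 31 named pairs, 5 moved by more than the spread between sets under TMM factors and 2 with a pseudocount of 10 reads. Where both sets had the same sign, the mean over sets kept its sign. Values of a single set could change sign under TMM factors. Jerala_P2 with Jerala_P1 went from 0.86 to -0.47 in replicate 2, and Jerala_P9 with Jerala_P10 from -0.52 to 0.29 in replicate 1. Where the sets had opposite signs, the mean could change sign too, as for Jerala_P4 with Jerala_P3 (0.03 to -0.23). TMM took the median log2 change of all pairs in the edgeR fit from -0.24 to 0.09. The cause of these differences was not tested. With 2 libraries per dose, and 26 reads for the median pair of the 2 mM library of replicate 2, changes of most off-target pairs could not be told from the spread between sets.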

Other observations

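The same ordered pairs were also present in 4 selections at 1 mM 3-AT within other pools, whose values stand here beside those above without a comparison, since dose, pool and competitors differ. Designed pairs held 91.0% of the reads of these pairs in the NICP mALb T pool, 92.9% in the pool with AN and BN peptides, and 82.6% and 78.6% in the 2 replicates of the Coiled pool. Of the 3 dimers with the lowest shares at 10 mM, Jerala_P5:Jerala_P6 held 17.1%, 16.5%, 7.56% and 7.18% in the same order, Jerala_P7:Jerala_P8 14.3%, 7.99%, 7.19% and 2.53%, and Jerala_P11:Jerala_P12 9.0%, 21.6%, 5.91% and 5.20%. Jerala_P1:Jerala_P2 held 17.2%, 22.9%, 16.2% and 21.7%, Jerala_P3:Jerala_P4 12.8%, 16.9%, 26.9% and 28.9%, and Jerala_P9:Jerala_P10 20.5%, 7.11%, 18.9% and 13.1%. The same 3 dimers had the lowest shares in both replicates of the Coiled pool, but not in the other 2 pools. In the pool with AN and BN peptides, Jerala_P10 with Jerala_P9 had 5 reads before selection and 2 after. The share of Jerala_P9:Jerala_P10 there came almost only from its other order.

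Jerala_P4 with Jerala_P12, which held 15.7% of reads at 10 mM in replicate 2, held 0.0158%, 0.0429%, 0.0618% and 0.111% in these 4 selections. Jerala_P11 with Jerala_P5 held 0.555%, 0.323%, 0.292% and 0.123%, and Jerala_P10 with Jerala_P6 held 0.0867%, 0.0036%, 0.0634% and 0.0699%. None of the 3 reached 1% of reads in any of them.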
